A study of Mus musculus with 2 samples.

Results

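The long noncoding RNA intervals of the mouse autosomes were examined in the epidermis of newborn mice after 12 h of SOX11 induction. They are the non-control probes whose name is a genome interval with a strand letter on a numbered chromosome. The array's own description calls each of them a lincRNA, a term for a long RNA made between protein-coding genes. Whether an interval lies outside every gene was not checked. A window of chromosome 13 beside Sox4, with 42 probes between chr13:28490281 and chr13:28975433, was left out, and the choice used names and positions alone. It gave 15562 of the 55681 non-control probes, which cover 3374 intervals and, counting each strand on its own, 4415 strand-specific regions with 1 to 10 probes and a median of 3. Both strands were probed for 1041 intervals. There were 7882 forward-strand and 7680 reverse-strand probes, and all positions are on the genome build mm9 as the array files list them. A position was missing for 118 probes, and the other 15444 lay inside the interval of their name.

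The measurements come from 2 microarrays, each of which compared 1 littermate pair of FVB/N pups at postnatal day 4.5. One pup of a pair carried K14-rtTA and TRE-Sox11-FLAG, and the control pup carried K14-rtTA alone. K14-rtTA puts a doxycycline-dependent activator under the keratin 14 promoter, which is active in basal keratinocytes, and TRE-Sox11-FLAG is switched on by that activator to make FLAG-tagged SOX11, a transcription factor of embryonic tissues. Both pups of a pair received doxycycline (Dox) for 12 h, so that the control shares the activator and the drug, and epidermal sheets of the back skin were used. All values are log2 ratios of SOX11-induced over control epidermis, on which 1 is a doubling. They are given for pair 1 and pair 2, with the mean ± SD of the 2 arrays (n = 2) and an adjusted p-value from 1 limma fit over all 55676 probes tested. A probe is said to be called when its adjusted p was under 0.05 and its mean ratio was past 1.5 in either direction, and to have passed the test when its adjusted p was under 0.05. Control RNA was labelled with Cy3 and SOX11 RNA with Cy5 on both arrays per the labels, so that a dye effect and a genotype effect cannot be told apart within a probe.

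Long noncoding RNAs are transcripts that are not translated into protein. Many are present at low levels and in few tissues, and many lie beside a protein-coding gene or run antisense to it. Some, such as Airn, act on neighbouring genes, some are hosts of small RNAs that are cut from their introns or exons, and for the majority no function is known. Where the array holds probes for both strands of an interval, transcripts of the strands are measured apart.

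The probes that carry the main results are shown here, each 60 bases long, 5′ to 3′ and in the sense of the RNA that it detects. The first 3 sit end to end on the forward strand of chromosome 1, at chr1:139822684-139822743, chr1:139822744-139822803 and chr1:139822804-139822863, and capitals mark AATAAA, the core polyadenylation hexamer.
Chromosome 1, first: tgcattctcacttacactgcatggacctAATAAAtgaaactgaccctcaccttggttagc
Chromosome 1, middle: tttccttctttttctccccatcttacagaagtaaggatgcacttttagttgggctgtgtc
Chromosome 1, last: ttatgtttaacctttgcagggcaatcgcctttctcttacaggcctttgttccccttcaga

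The next probes are the reverse-strand probes that lie between probes of Khdrbs1, at chr4:129381138-129381197 and chr4:129381000-129381059. After them come the single forward-strand probe with the largest mean rise, at chr6:34548606-34548665, and the reverse-strand probe with the largest mean fall, at chr5:149765999-149766058. All of these hold no AATAAA and are in lower case throughout.
Chromosome 4, Khdrbs1 side, larger rise: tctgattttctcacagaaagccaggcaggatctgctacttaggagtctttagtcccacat
Chromosome 4, Khdrbs1 side, smaller rise: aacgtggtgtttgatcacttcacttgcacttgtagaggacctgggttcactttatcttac
Chromosome 6: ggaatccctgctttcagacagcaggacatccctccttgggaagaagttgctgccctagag
Chromosome 5: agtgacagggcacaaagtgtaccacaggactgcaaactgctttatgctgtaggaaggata

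A pair of probes shows how the strands were told apart. The reverse-strand probe at chr16:34570973-34571032 and the forward-strand probe at chr16:34570956-34571015 cover the same 43 bases, in capitals, which are reverse complements of each other.
Chromosome 16, reverse: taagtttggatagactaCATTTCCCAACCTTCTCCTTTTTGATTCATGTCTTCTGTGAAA
Chromosome 16, forward: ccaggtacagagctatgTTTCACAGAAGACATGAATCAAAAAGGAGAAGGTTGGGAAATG

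The last set shows sequence shared with genes elsewhere. The chromosome 15 probe at chr15:77200489-77200548 and a probe of Tmsb10, at chr6:72907492-72907550 on the reverse strand, hold 33 bases, in capitals, that are reverse complements. The reverse-strand probe at chr4:146531518-146531577 and a probe of Baz1a, at chr12:55994808-55994867 on the reverse strand, share 58 bases in the same orientation.
Chromosome 15: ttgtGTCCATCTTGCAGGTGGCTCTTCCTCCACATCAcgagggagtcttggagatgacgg
Tmsb10: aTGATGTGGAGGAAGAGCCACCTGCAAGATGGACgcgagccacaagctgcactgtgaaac
Chromosome 4, Baz1a match: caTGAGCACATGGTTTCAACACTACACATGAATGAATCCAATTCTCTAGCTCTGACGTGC
Baz1a: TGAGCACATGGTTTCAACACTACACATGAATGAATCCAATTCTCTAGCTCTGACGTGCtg

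Few of the probes gave a signal. In control epidermis 2226 probes (14.3%) were well above background on array 1 and 2427 (15.6%) on array 2, as flagged by the scanner software. In SOX11 epidermis the counts were 2765 (17.8%) and 3142 (20.2%). The remaining 39500 probes of the array were above background in 45.3% to 50.2% of cases, and there too the SOX11 channel had the higher share on both arrays. Reverse-strand probes were above background a little more often than forward-strand probes in every channel, 16.9% against 14.3% in the control of array 2. Over both arrays 2665 lncRNA probes were above background in at least 1 channel of each array, and 1399 of the 4415 strand-specific regions (31.7%) had such a probe. AATAAA occurred in 3.92% of the lncRNA probes, in 4.58% of those above background and in 12.6% of the other probes of the array, with both strands of an interval each counted as its own probe.

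**Figure D1:**
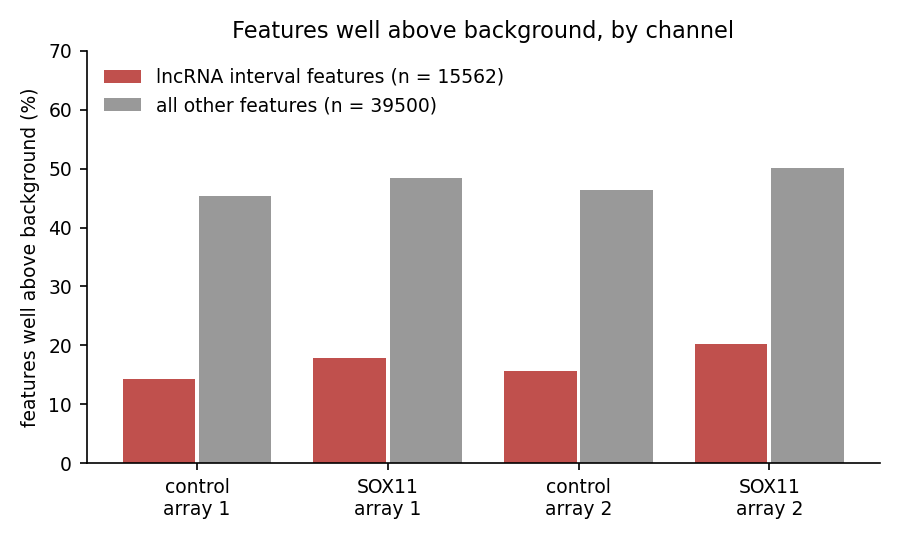
Share of probes well above background (%) in each channel of the 2 arrays, for the 15562 lncRNA probes (red) and the 39500 other probes (grey). The lncRNA bars lie between 14.3% and 20.2% and the grey bars between 45.3% and 50.2%, and the SOX11 bar is the higher one on each array in both classes.

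More lncRNA probes rose than fell after SOX11 induction, except with median centring, where more fell, and with processed signals, where none passed. Of the 15562 probes 225 rose and 50 fell at an adjusted p under 0.05, against 2.99% and 1.41% of all probes tested. That is 1.45% and 0.321% of the lncRNA probes, so that both shares were below the background of the array. With the size threshold added, 9 probes were called higher and 1 lower, against 0.366% and 0.0862% of all probes tested. With a normexp offset of 50, 4 of the 9 rises (1.19 to 1.46) and the fall (-1.18) came under the size threshold and still passed the test, and with processed signals the 9 means were 1.63 to 2.48 but none of the 10 passed (adjusted p = 0.244 to 0.285). Among the 2665 probes above background, 150 (5.63%) passed upwards and 24 (0.901%) downwards, and the other 18999 probes of the array that were above background had 6.83% and 3.55%. The remaining 75 rises and 26 falls were in probes not above background in a channel of each array and rest on dim spots. In 42 of the 150 rises control epidermis was above background on neither array. The share of rises among the probes that passed, 81.8%, was 78.3% to 82.6% with another offset, median spot brightness, the series table or outlier spots kept, but 36.7% with median centring, which moved the median of all probes above background from 0.04 to 0.51. With processed signals no lncRNA probe passed, and 42.8% of those at an unadjusted p under 0.05 were rises, next to 60.1% in the main setting. The median ratio of lncRNA probes above background was 0.08, next to 0.03 for the other probes above background, and with median centring that order turned, at 0.42 and 0.52.

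All 225 rises and 50 falls had the same sign in both pairs. A probe with opposite signs can hardly pass a test on 2 ratios, so this follows from the selection. Over the 2665 probes above background, pair 1 and pair 2 were correlated with a Pearson r of 0.63 and a Spearman rho of 0.58, and 70.5% had the same sign. These are descriptions across probes, which share the libraries and are not independent replicates. The passing probes fell into 169 strand-specific regions with at least 1 rise and 41 with at least 1 fall, with 1 region in both counts. In 34 regions 2 or more probes rose, in 14 of them 3 or more, and in 5 regions 2 or more fell.

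**Figure D2:**
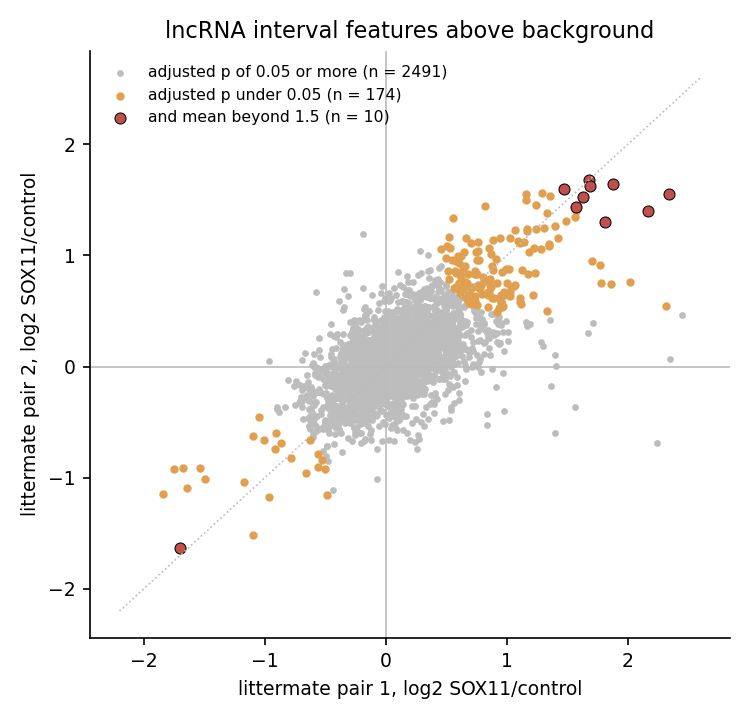
Each point is 1 of the 2665 lncRNA probes above background, with the log2 ratio of SOX11 over control in littermate pair 1 (x) and pair 2 (y). Orange points passed the test (174), red points also had a mean past 1.5 (10), grey points did not pass, and the dotted line marks equal ratios. The red rises lie above 1.3 in both pairs, while some grey points are above 2 in pair 1 and near 0 in pair 2.

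A stretch on the forward strand of chromosome 1 held 3 of the 9 called rises. The 3 probes of the interval chr1:139822286-139822985, printed above, had ratios of 1.47 and 1.59, of 1.68 and 1.68, and of 1.63 and 1.52 in pair 1 and pair 2. Their means were 1.53 ± 0.0836 (adjusted p = 0.000677), 1.68 ± 0.000661 (adjusted p = 0.000407) and 1.58 ± 0.0743 (adjusted p = 0.000583; SD, n = 2), about a 3-fold rise, and all 3 were above background in every channel. Neighbouring forward intervals rose with it. Between the first and the last passing probe, chr1:139796208-139857143 or 60.9 kb, 15 forward lncRNA probes of 6 intervals were measured, of which 15 were positive in both pairs, 13 were above background and 12 rose. Their median was 1.22, with a lowest mean of 0.06 and a highest of 1.68. The limits of the stretch were set by passing probes, so these counts are a description. Just before its start, the other forward-strand probes of chr1:139795171-139796306 had means of 0.40 (adjusted p = 0.172) and 0.55 (adjusted p = 0.0758) and did not pass. Farther along, all 3 probes of chr1:139847592-139848243 and all 3 of chr1:139856545-139857204 rose. For 1 probe in each, control epidermis was above background on neither array, which leaves only bounds, at least 1.88-fold and at least 2.29-fold.

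No reverse-strand probe of that stretch passed the test. The 5 that lie wholly inside it were not above background, with means between -0.18 and 0.19. Another, which overlaps its start by 46 bases, was above background in every channel, with 0.08 and 0.19 (0.13, adjusted p = 0.66). The pair of reverse-strand probes just before it were not above background and had means of 0.45 (adjusted p = 0.156) and 0.36 (adjusted p = 0.247). Probes of transcripts with a name of their own rose on the forward strand between the intervals. ENSMUST00000054333 had ratios of 1.00 and 1.31 with one probe, with a mean of 1.15 ± 0.22 (adjusted p = 0.00416), and a mean of 1.07 ± 0.281 with the other (adjusted p = 0.00726). D130019J16Rik rose by 1.08 ± 0.234 (0.91 and 1.24; adjusted p = 0.00606). Past the end of the stretch, A430106G13Rik (0.14, adjusted p = 0.628) and Gm4258 (-0.09, adjusted p = 0.791) were not above background. RefSeq (GRCm38.p6) lists Gm4258 as a long noncoding RNA whose next neighbours in gene order are the microRNA genes Mir181a-1 and Mir181b-1, for which no probe was used here. MicroRNAs of the miR-181 family are known from lymphocyte development.

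**Figure D3:**
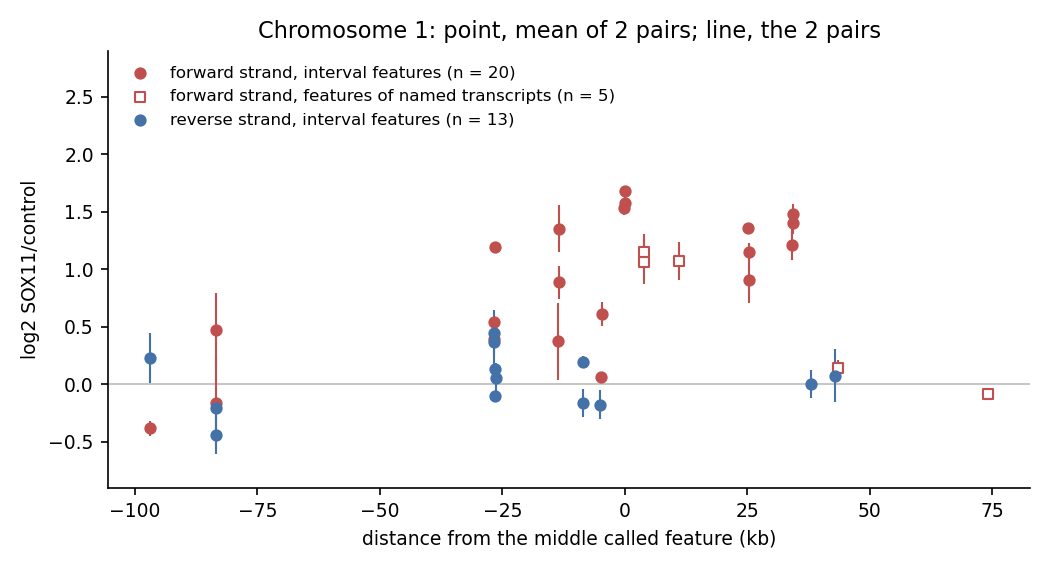
Log2 ratio of SOX11 over control (y) against distance in kb from the middle called probe (x), for all probes within 100 kb on chromosome 1. Points are means of the 2 pairs and lines join the 2 pairs, with the forward strand in red, the reverse strand in blue and probes of named transcripts as open squares. Forward probes are raised from about 27 kb before to about 34 kb after the called probe, and the means of reverse probes stay within 0.5 of 0.

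The interval chr4:129380903-129390686, reverse strand, held 2 called rises and lay between probes of Khdrbs1, which encodes the RNA-binding protein Sam68. The probes of the interval had ratios of 1.69 and 1.62, of 1.88 and 1.64, and of 1.02 and 1.16. The means were 1.66 ± 0.0434 (adjusted p = 0.000436), 1.76 ± 0.165 (adjusted p = 0.000375) and 1.09 (adjusted p = 0.0044), so that both pairs were raised in each probe. Khdrbs1 itself rose on the same strand. Its probe 0.73 kb from the called one had 1.73 and 1.16 (1.44 ± 0.402, adjusted p = 0.00218), and its second probe, 11.02 kb away on the other side, had 0.86 and 1.14 (1.00 ± 0.201, adjusted p = 0.00814). A larger interval around the locus, chr4:129376440-129391690, had 2 rises among its 5 reverse-strand probes, with means of 1.33 and 0.88. Of its 5 forward-strand probes none was above background, and 1 of them passed upwards, with 0.71 and 0.59 (0.65, adjusted p = 0.0441). Other genes within 100 kb did not pass, among them Tmem39b (0.35, adjusted p = 0.218), Kpna6, an importin (0.05 and 0.25), Txlna (0.18 and 0.21) and Ccdc28b (-0.61, adjusted p = 0.0618). In a wider window Marcksl1, which encodes a MARCKS-like actin-binding protein, lay 188 kb away on the opposite strand and rose by 1.89 (2.10 and 1.68; adjusted p = 0.000369).

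The interval chr16:34524589-34573439 changed on 1 strand. All 5 of its reverse-strand probes rose, with means of 1.11 to 1.503. The called one, printed above, had 1.57 and 1.43 (1.503 ± 0.1, adjusted p = 0.000797). Its forward partner, which shares 43 bases with it, had -0.06 and -0.13 (-0.09 ± 0.0495, adjusted p = 0.775) and was above background in no channel. The 5 forward-strand probes lay between -0.44 and 0.03 and none was above background. All 3 reverse-strand probes of chr16:34559623-34560462, inside the larger interval, rose as well, by 0.76 to 1.29. In 1 probe of each of these intervals control epidermis was not above background on either array, with rises of at least 2.25-fold and at least 2.17-fold. No named gene had a probe within 100 kb, and the nearest one on the same strand, of Kalrn, a guanine nucleotide exchange factor, lay 393 kb away and had 0.24 (adjusted p = 0.43). That is the distance to a probe, and whether the interval lies within Kalrn was not checked.

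The interval chr15:77164450-77201325, forward strand, had 2 called rises and a match to a gene elsewhere. Of its 5 forward probes 4 rose. The called ones had ratios of 2.16 and 1.40 (1.78 ± 0.54, adjusted p = 0.00122) and of 1.81 and 1.30 (1.55 ± 0.359, adjusted p = 0.00126), and the probe printed above had 1.77 and 0.91 (1.34 ± 0.609, adjusted p = 0.0074). Pair 1 was thus higher than pair 2 in these probes. Tmsb10, which encodes the actin-sequestering thymosin beta 10 and whose probe shares 33 bases with the latter in reverse complement, had 2.01 and 1.19 (1.60 ± 0.581, adjusted p = 0.00261), a ratio and a difference between pairs close to those of the interval. Its other probe, with 22 shared bases, had 2.00 and 1.20. Both matches are in reverse complement, so the chromosome 15 probe is not in the sense of the RNA that the Tmsb10 probes detect. Which RNA gave the signal was not tested. The single reverse-strand probe of the interval had 0.13 (adjusted p = 0.674). The apolipoprotein L genes within 100 kb that were above background, Apol9a (-0.04, adjusted p = 0.921) and Apol7b (0.06, adjusted p = 0.873), did not pass.

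The largest mean rise was in the single probe of chr6:34548561-34612216, forward strand. It had 2.34 in pair 1 and 1.55 in pair 2, with a mean of 1.94 ± 0.555 (adjusted p = 0.000838), a 3.84-fold rise. Control epidermis was above background on array 2 and not on array 1, and SOX11 epidermis on both. Bpgm, which encodes bisphosphoglycerate mutase, lay 93.8 kb before it on the same strand with 1.19 and 0.47 (0.83 ± 0.509, adjusted p = 0.0431). Cald1, which encodes the actin and myosin binding protein caldesmon, had a probe 175 kb after it on the same strand. Where Cald1 starts was not checked, so whether the interval lies within that gene is not known here. Its probes had 2.30 and 1.14 (1.72, adjusted p = 0.00479) and 2.11 and 0.84 (1.47, adjusted p = 0.0136), with the higher value in pair 1, as in the interval.

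Falls were few. The one called fall was the middle probe of 3 on the reverse strand of chr5:149765314-149771786, with -1.70 and -1.63 (-1.67 ± 0.0537, adjusted p = 0.000429). SOX11 epidermis was above background for it on array 2 and not on array 1. The probes on either side had -0.49 and -1.16 (adjusted p = 0.04) and -1.54 and -0.91 (adjusted p = 0.00607), so that all 3 fell. LOC101056197, 4.51 kb away on the same strand, had -1.46 and -1.10 (-1.28 ± 0.255, adjusted p = 0.00258). SOX11 epidermis was above background for it on neither array, which bounds the fall at at least 1.84-fold. Katnal1, a katanin-like gene, and Hmgb1, which encodes a chromatin protein, flank the interval within 100 kb, and none of their 11 probes above background passed the test.

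The remaining probes of the 8 with the largest falls came from 2 more intervals, both on the reverse strand. All 5 reverse-strand probes of chr4:124127144-124334840 fell, with means of -1.25 to -1.495. The probe with the largest fall there had -1.84 and -1.15 (-1.495 ± 0.493, adjusted p = 0.00261). These lie at chr4:124200176-124200514. The 5 forward-strand probes of the interval lie elsewhere in it, at chr4:124329749-124334247, so the strands were not compared at the same place. They had means of -0.47 to 0.18, none was above background on both arrays, and none passed. ENSMUST00000053604, 87.4 kb from the probe with the largest fall and on its strand, fell with -1.17 and -0.55 (-0.86 ± 0.432, adjusted p = 0.0301). Pou3f1, which encodes a POU transcription factor of the epidermis, lay 138 kb away on the opposite strand, beyond the window, and had -1.26 and -0.97 (-1.12, adjusted p = 0.00478). In chr5:152006587-152008784, 2 of 3 reverse-strand probes fell. Its leading probe had -1.10 and -1.52 (-1.31 ± 0.298, adjusted p = 0.00263), and the nearest named gene that was above background, Gm6917, had -0.22 (adjusted p = 0.428).

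**Figure D4:**
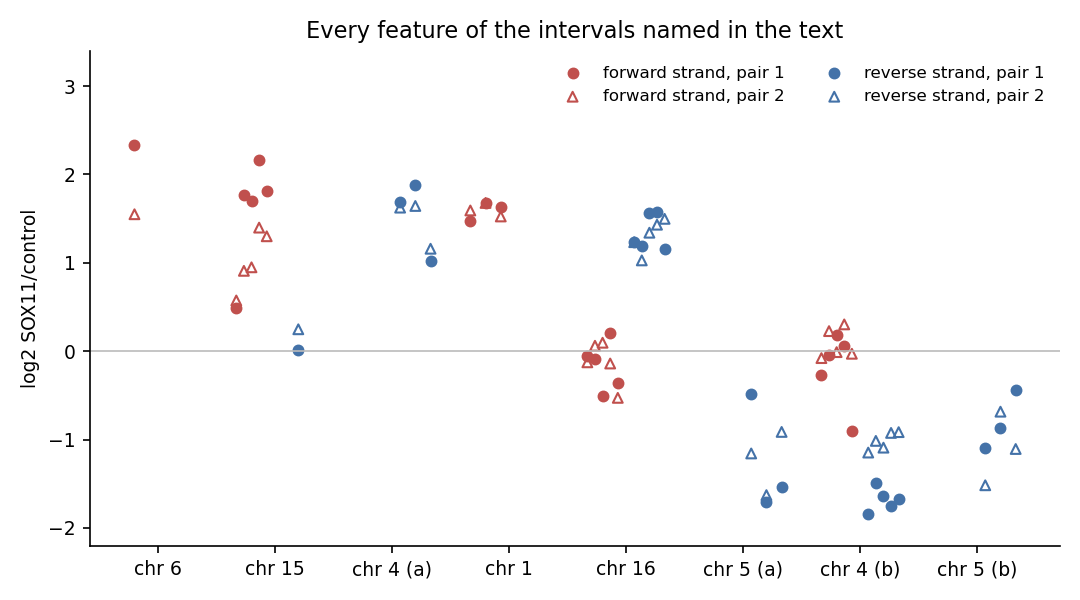
Log2 ratio of SOX11 over control (y) for every probe of the 8 intervals described above, named by chromosome, with pair 1 as filled circles, pair 2 as open triangles, the forward strand in red and the reverse strand in blue. Chromosome 4 (a) is the interval between probes of Khdrbs1, 4 (b) the one with 5 falls, 5 (a) the one with the called fall and 5 (b) the last one. On chromosome 16 the reverse-strand probes lie between 1.03 and 1.57 and the forward-strand probes between -0.53 and 0.20.

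The strand behaviour of the named intervals was looked at over all members. Of the 1041 intervals probed on both strands, 454 had no probe above background, 397 had one on 1 strand and 190 on both. A closer comparison used the 1694 pairs of forward and reverse probes that overlap by at least 30 bases, 100 of them over all 60 bases. Neither probe was above background in 1193 pairs, 1 of them in 422 (183 forward, 239 reverse) and both in 79. A probe that passed the test and was above background stood in 37 pairs, and its partner on the other strand passed in 0 of them and was above background in 8. Since 1.45% and 0.321% of all lncRNA probes passed upwards and downwards, a count of 0 in 37 is near that background. In the 34 such pairs with a rise, the median was 0.80 for the probe that rose and 0.08 for its partner, whose means lay between -0.48 and 0.47. The rising probe of each pair was chosen by its own value, so these medians are a description.

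**Figure D5:**
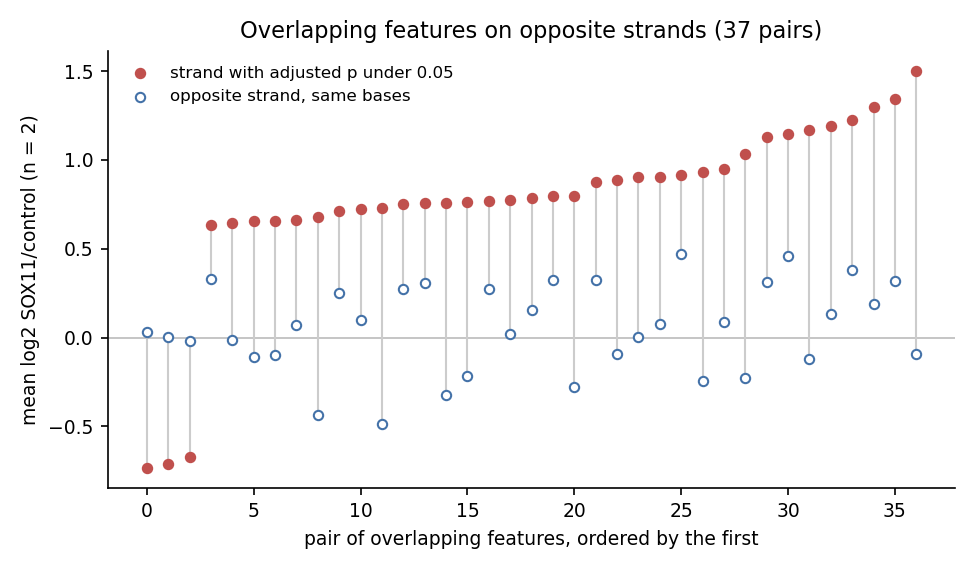
Mean log2 ratio of SOX11 over control of 2 pairs (y) for the 37 pairs of overlapping probes in which one strand passed the test (red) and for its partner on the other strand (open blue), ordered by the red value. Grey lines join partners, and no partner passed the test, a count near the background of 1.45% and 0.321%.

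Named genes next to a changed interval were compared by strand. Around the 10 called probes, 45 probes of 25 names were tested within 100 kb, of which 35 were above background, 6 rose and 1 fell. Over all probes tested 2.99% rose and 1.41% fell. The 7 near called probes are those of Bpgm, Khdrbs1, ENSMUST00000054333, D130019J16Rik and LOC101056197 given above, all on the strand of the interval and in its direction. The Khdrbs1 probes lie on either side of the called ones, and the chromosome 1 names lie between the intervals. Whether an interval and a named probe belong to 1 transcript was not tested. More broadly, 98 strand-specific regions had a rise and no fall among their probes above background, and 62 of them had a named probe above background within 100 kb on the same strand. Such a probe rose in 25 of the 62 (40.3%) and fell in 3 (4.84%). On the opposite strand it rose in 11 of 45 (24.4%). Where no lncRNA probe passed, the shares were 117 of 860 (13.6%) on the same strand and 94 of 781 (12.0%) on the opposite strand. Of the 15 regions with a fall and no rise counted in the same way, 13 had a neighbour on the same strand, and 9 of these had a fall in it (69.2%), next to 6.05% where no lncRNA probe passed. On the opposite strand it was 3 of 6 (50%), next to 6.27%, so that falls in neighbours were not limited to the same strand. Named probes with 20 or more bases in common with a lncRNA probe were left out of these counts. Regions that lie close together, such as those of the chromosome 1 stretch, share their neighbours, so a locus can count more than once. Regions and neighbours also share the arrays, so the shares are given without a test.

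Other intervals with several passing probes were picked out after their values were seen. On the reverse strand of chr2:174088550-174109425, 5 of 6 probes rose, the highest with 1.30 and 1.25 (1.28, adjusted p = 0.00183). Nespas, the imprinted antisense RNA of the Gnas locus, was not above background (-0.04, adjusted p = 0.936), and Gnas, which encodes a stimulatory G protein subunit, had 0.04 (adjusted p = 0.916). In chr17:35080914-35090009, 4 of 7 reverse-strand probes rose, the highest with 1.35 and 1.10. The transcript 1110038B12Rik, 1.26 kb away on the same strand, had 1.23 and 1.02 (1.13, adjusted p = 0.00408), while Zbtb12, a zinc finger gene on the opposite strand, fell by 0.76 (adjusted p = 0.031). In chr13:108548345-108679004, 3 of 6 reverse-strand probes rose, and 3 probes of Zswim6, a zinc finger gene on the same strand about 34 kb away, rose by 1.12, 0.78 and 0.69. Next to chr7:134369091-134376366, where 4 of 5 reverse-strand probes rose, by means of 0.78 to 1.17, the zinc finger gene Zfp553 on the opposite strand had 2.00 and 1.61 (1.81, adjusted p = 0.000434). In chr4:131734714-131742542, 3 of 5 forward-strand probes rose, by means of 0.76 to 0.96. Ythdf2, which encodes a reader of methylated adenosine in RNA, runs on the opposite strand there and rose with 1 probe (0.71, adjusted p = 0.0314) while another had 0.52 (adjusted p = 0.0959).

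In chr3:145313275-145315057 all 3 forward-strand probes rose. For all 3 control epidermis was above background on neither array, and the highest, at 1.36 and 1.53, was at least 2.09-fold up. One of them is the same 60 bases as the probe of Gm17501, so these are not separate measurements. Cyr61, which encodes a secreted matrix protein and lies 4.75 kb away on the opposite strand, had 0.33 and 0.73 (0.53, adjusted p = 0.106). Falls with 2 passing probes were in chr8:48480224-48480698 (means of -0.47 to -0.80 in 3 probes) and chr15:73455424-73477275 (2 of 6 reverse-strand probes, with means of -1.07 and -0.83), where Slc45a4 on the same strand had -0.44 (adjusted p = 0.14).

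Sequence shared with other probes of the array was found in few of the changed probes. The search compared probes with probes, so a match to a part of a transcript that no probe covers would be missed. Of the 275 that passed, 11 held 20 or more bases in common with a probe outside the lncRNA intervals, 5 of them with one on another chromosome, 1 of which, of Fbn2, had the shortest run searched. In chr4:146507925-146532650, 4 of 5 reverse-strand probes rose, by means of 0.76 to 0.82. The one with 58 bases of Baz1a, which encodes a bromodomain chromatin remodelling factor, had 0.97 and 0.67, and Baz1a had 0.85 and 0.81 (0.83 ± 0.0327, adjusted p = 0.0162). These are uncertain as separate transcripts. A probe in chr14:44292637-44293014 rose by 0.64 and had 55 bases in common with one of Rbmxl1, which rose by 0.69. Probes of chr6:135294099-135300310 (1.11, adjusted p = 0.00385) and chr17:6806387-6812243 (0.84, adjusted p = 0.0294) matched the RefSeq promoter window of Dynlt1c, a dynein light chain gene with near-identical copies. The array probes of Dynlt1f and Dynlt1c rose by 1.28 and 1.25.

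Among 43 long noncoding RNAs known by name, 31 had a probe, with 58 probes in all and 31 of them above background. In the limma fit 4 of these 58 rose, 0 fell (4 were negative at an unadjusted p under 0.05) and 0 were called, with 0 past 1.5 at that unadjusted p. Over all probes tested 2.99% rose and 1.41% fell, and among those above background 6.78% and 3.21%. With 58 probes these counts say little. Peg13, an imprinted brain-enriched RNA, had 1.52 and 1.31 (1.41, adjusted p = 0.00117). Snhg11, a snoRNA host gene, rose with one probe (1.43 and 0.90, adjusted p = 0.00611), for which control epidermis was above background on neither array, by at least 1.63-fold, and had 0.53 (adjusted p = 0.085) with the other. Airn, which silences genes in cis at the imprinted Igf2r locus, rose with 2 of 4 probes, by 1.03 and 0.74. The abundant nuclear RNAs Malat1 (0.14), Neat1 (-0.19) and Tug1 (-0.17 to 0.27) did not pass, nor did H19, whose probes above background had -0.75 to -1.10 in pair 1 and -0.10 to 0.23 in pair 2. The median of the list above background was -0.12, next to 0.04 over all probes above background. Genes with several probes, such as H19, weigh more in that median.

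None of the 5 brightest lncRNA probes passed the test, and none of their 20 channel readings was flagged as saturated by the scanner software. The 5 highest by mean brightness lay in chr11:22681800-22707775 (-0.01), chr19:5801802-5802597 (0.37, adjusted p = 0.203), chr17:39960567-39992817 (0.23), chr17:39983902-39985688 (0.18) and chr14:78924115-78938125 (-0.04). The chromosome 19 probe sits 6.30 kb from probes named NEAT2, an older name of Malat1, on the same strand, and the chromosome 17 probes lie 0.149 to 0.571 kb from the ribosomal RNA probes Rn45s (0.11) and Rn18s (0.20) on the same strand.

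At the edges of the window left out beside Sox4, the first probe inside it had 0.42 and the last 0.32, and the nearest probes outside had -0.19 before it and -0.09 after it. None of these 4 was above background.

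The pairs were not alike in every respect. In pair 1 22 lncRNA probes were past 1.5, in pair 2 9, and 5 in both. Below -1.5 there were 7, 2 and 1. The highest ratios of pair 1 among probes above background that did not pass were in chr9:118291593-118324230 (2.44 and 0.46), chr9:56910620-56919667 (2.35 and 0.06) and chr16:13752215-13764390 (2.24 and -0.69). In these 3 the control of array 1 was lower than the control of array 2, with log2 levels of 9.19 against 12.1, 10.2 against 13.5 and 6.82 against 11.3. All 9 hair shaft keratin markers moved in the same way, by 1.42 to 2.46 in pair 1 and -0.54 to -0.08 in pair 2, with summed log2 levels of 15.2 and 18.3 in the controls and 17.5 and 18.02 in SOX11 epidermis. None of them passed the test, and their part in the lncRNA values was not tested.

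The tissue carried its own markers. All 5 keratinocyte markers were above background in all channels, with medians of 0.23 and 0.49. Fibroblast markers had medians of -0.17 and 0.77 and summed log2 levels of 10.1 and 10.2 in the controls and 9.64 and 10.6 in SOX11 epidermis, and 1 of 5 fell, Dcn, which encodes decorin (-0.97 and -0.62, adjusted p = 0.026). All 4 melanocyte markers (medians of 0.56 and 0.04) and all 4 leukocyte markers, Ptprc among them (medians of -0.37 and -0.08), were above background in all channels and none passed. Of 3 endothelial markers 1 was above background in both controls, and of 3 muscle markers 0. In whole tissue fewer cells of a type and less RNA per cell cannot be told apart.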

How the data were processed

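The intensity values that the authors deposited are spot and local background brightness of each channel in scanner units, made per the file headers with a G2505C scanner and Agilent Feature Extraction 10.7.3.1, and the build of the probe positions is mm9. The log10 ratio column that the authors deposited was not used. The log2 ratios in the authors' own table for the series were, per the methods, made by normexp with an offset of 16 and loess, and they served as an alternative. The methods describe a colour swap, which the labels do not show. They also describe removal of a potential colour effect with the Combat method, a step that the fit here did not include.

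In R 4.3.3 with limma 3.58.1, mean brightness and median background were corrected by normexp (offset 16) and each array was centred by loess with control spots at weight 0. Control spots and outlier-flagged spots (194 and 186) were left out, spots of 1 probe were averaged, and an intercept was fitted to the 2 log2 ratios of 55676 probes with eBayes and Benjamini-Hochberg adjustment. The prior had 8.34 degrees of freedom, and with 2 arrays alone an exact test of signs gives no p below 0.5, so that calls rest on it. The fit was also run on simulated ratios whose noise came from its own prior, which tests neither dye bias nor the normalization. A probe counted as above background where at least 0.5 of its spots were flagged well above background. Where a group was above background on neither array, a bound was taken from per-channel levels after loess and Aquantile, with the dim channel at the higher of its own level and the lowest level above background. It is open to dye bias. The precision is limited by the number of arrays.

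The rule for naming probes took all called probes, filled the falls to 8 by size among those that passed, and added the other probes of their intervals, named genes within 100 kb and the 5 brightest probes. Members and lists were chosen with earlier results of these data known. Sequences come from the array files, and names and promoters from RefSeq (GRCm38.p6), none of whose coordinates were used. No mm9 gene models were used, so exons and introns are not given. Distances run between probe midpoints, and a gene may reach nearer to an interval, or over it, than its probes do.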

Additional observations from a re-analysis of the deposited data

How the results depend on the processing

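The count of 9 lncRNA probes called higher was 8 with median spot brightness and with the series table and 9 with outlier spots kept or only bright probes tested. It was 5 with a normexp offset of 50, 40 with median centring and 0 with processed signals (128 at an unadjusted p under 0.05, also past 1.5). Over all probes tested 204 were called higher in the main setting, 146 with that offset and 746 with median centring. A linear threshold of 1.5-fold gave 225, which is every lncRNA rise that passed, the smallest being 0.626. The 1 called fall became 0 with an offset of 50, 0 with median centring, 0 with processed signals (50 unadjusted) and 50, all that passed, at 1.5-fold. Over all probes tested 48 were called lower in the main setting, 31 with that offset and 10 with median centring. With 1 array left out, which allows no test, 9 to 22 probes were past 1.5 and 2 to 7 below -1.5, the higher numbers in pair 1. Probes above background numbered 6098 with the looser flag of a positive and significant signal, in place of 2665. Their median ratio moved to 0.42 with median centring. Of the 45 probes of named genes near called ones, 25 passed with median centring, in place of 7. Over all 55676 probes tested, 12123 rose and 6362 fell with median centring, in place of 1662 and 784. All 17 probes named by the rule kept their direction under each of the 7 other fits. Each array holds 1 littermate pair, so the ratios are already paired, and the fit treats them as 1 group. The cause of these differences was not tested.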
